A study of Homo sapiens with 6 samples.

Results

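The chaperones, folding enzymes, translocation channel subunits, degradation factors and sensors of the endoplasmic reticulum (ER) were examined in RKO cells, a human colorectal cancer line, with and without overexpression of the gap junction protein Cx43 (gene GJA1). The group comprised 43 genes chosen by symbol, and all 43 had a row in the deposited table of 63563 genes; 40 of them matched the symbol exactly, and HSP90B1, PDIA5 and SYVN1 shared their symbol entry with a hosted microRNA. Of the 43 genes, 40 reached at least 1 FPKM (fragments scaled by transcript length and library size) in at least 3 of the 6 libraries and were tested. The OVER43 group (3 libraries) was RKO cells stably transfected with the pcDNA3.1 vector carrying Cx43 cDNA, and the EV group (3 libraries) was RKO cells given the empty vector. The labels put both groups in the same serum-containing medium and give no stress treatment, age or time. They do not say whether a group is 1 clone or a pool of transfected cells, nor whether replicate libraries were grown separately, so p-values reflect the spread among these 6 libraries and no more. Poly(A) RNA was sequenced from bulk cells, in which fewer expressing cells and less RNA per cell cannot be told apart.

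Proteins that enter the secretory pathway pass through the Sec61 channel into the ER, where Hsp70 and Hsp90 family chaperones, the lectins calnexin and calreticulin, and protein disulfide isomerases fold them, and where misfolded chains are handed back to the cytosol for degradation. When unfolded protein accumulates, 3 membrane sensors, IRE1 (gene ERN1), ATF6 and PERK, start the unfolded protein response. IRE1 removes a short segment from XBP1 mRNA so that the frame of the active transcription factor is read, ATF6 is cut to release a transcription factor, and PERK slows translation and raises ATF4. XBP1 and ATF6 raise genes of chaperones and degradation factors through short promoter elements, the best known being the ER stress response element (ERSE).

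The sequence on which IRE1 acts is shown because the deposited isoform table separates a transcript that holds it from a transcript that lacks it. It lies in exon 4 of the 5 exons of XBP1-201, within the coding sequence, and is shown with 20 bases on each side as 5′ to 3′ of the minus strand at chr22:28796104-28796169 (GRCh38, GENCODE 29). The capitals mark the 26 bases that are removed, a length that leaves a remainder of 2 after division by 3 and so moves the reading frame.
XBP1-201, unspliced frame: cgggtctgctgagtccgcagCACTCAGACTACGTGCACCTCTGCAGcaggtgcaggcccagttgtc
XBP1-202, spliced frame: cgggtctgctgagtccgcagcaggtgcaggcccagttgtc

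Promoter windows from 250 bases before to 50 bases after the annotated start (RefSeq, GRCh38.p14) were found for 40 members and searched on both strands for the ERSE, spelled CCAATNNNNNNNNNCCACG. The motif stood in a window of 8 of the 40 members, against 0.0916% of 27305 genes. All of those members are shown because they differ in direction between OVER43 and EV (below), and the capitals mark the motif, read on the strand that holds it, with 5 bases on each side.
CALR, chr19:12938379-12938407, minus strand: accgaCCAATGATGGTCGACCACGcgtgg
CANX, chr5:179698773-179698801, plus strand: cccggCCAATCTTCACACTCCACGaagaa
CRELD2, chr22:49918549-49918577, minus strand: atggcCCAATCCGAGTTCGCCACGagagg
ERO1B, chr1:236282178-236282206, plus strand: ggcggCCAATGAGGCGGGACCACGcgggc
HSP90B1, first site, chr12:103930211-103930239, plus strand: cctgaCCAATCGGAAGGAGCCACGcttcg
HSP90B1, second site, chr12:103930316-103930344, minus strand: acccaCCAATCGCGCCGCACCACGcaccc
HSPA5, chr9:125241386-125241414, minus strand: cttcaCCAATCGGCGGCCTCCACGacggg
PDIA6, chr2:10812848-10812876, minus strand: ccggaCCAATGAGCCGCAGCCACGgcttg
XBP1, chr22:28800598-28800626, minus strand: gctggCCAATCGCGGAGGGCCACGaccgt
The motifs of CANX, HSPA5, PDIA6 and XBP1 read in the direction of the gene, those of CALR, CRELD2 and ERO1B read against it, and HSP90B1 holds 1 of each. Counted from the start site, the outer base of the motif lies between -52 (XBP1) and -243 (ERO1B), with CALR at -225.

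The labels, the libraries and the cell type were checked first. GJA1 stood at 23.2, 26.0 and 24.9 FPKM in the OVER43 libraries, against 0.30, 0.351 and 0.394 FPKM in the EV libraries, a 71.0-fold difference in means. Depth, read from the steps of low FPKM values, was 46.0 to 48.7 M fragments in OVER43 and 41.9 to 51.2 M in EV. The total FPKM per library was 554456 to 566947 in OVER43, larger than the 500546 to 509175 in EV. The epithelial markers EPCAM (20.5 FPKM in OVER43 and 12.5 FPKM in EV), KRT18 (148 and 79.4 FPKM) and KRT8 (24.6 and 58.7 FPKM) were present and differed between the groups, KRT19 was low (0.613 FPKM in OVER43 and 0.618 FPKM in EV), and each of the fibroblast, leukocyte and endothelial markers was under 1 FPKM in every library. The first principal component of the 6 libraries held 65.3% of the variance and separated OVER43 from EV, and EV library 2 lay apart on the second (11.1%).

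Across the 40 tested members, 21 rose, 5 fell and 14 did not pass the test (limma on log2(FPKM + 1), two-sided, Benjamini-Hochberg adjusted over all 12205 tested genes, called at an adjusted p under 0.05). The background was high: 28.4% of all tested genes rose and 17.5% fell, 45.9% in either direction. The median log2 fold change, OVER43 over EV, was 0.18 for the tested members and 0.05 for all tested genes; it is on the log2(FPKM + 1) scale, which understates the change of low genes. The values of the 3 libraries of each group did not overlap for 28 of the 40 members (23 higher and 5 lower in OVER43), against 56.3% of all tested genes (33.9% higher and 22.4% lower). The share of genes that rose depended on level: of the 792 tested genes that averaged 100 FPKM or more, 68.9% rose and 11.6% fell with a median of 0.19, a split by level made after the values were seen. Of the 13 members at that level, 11 rose and 2 fell with a median of 0.26. Under 100 FPKM, 10 of 27 members rose and 3 fell, against 25.5% and 17.9% of 11413 genes. Because FPKM sums were larger in OVER43, the members were also compared after other scalings. With equal FPKM sums the median of all genes moved by -0.13 to -0.08, and 10 members rose and 7 fell, against a background of 15.3% higher and 29.2% lower. With TMM scaling 16 members rose and 5 fell (background 23.2% and 21.0%), and with quantile scaling 9 rose and 7 fell (21.0% and 19.9%). Relative to the median of all genes, the median of the members was 0.12 as deposited, 0.12 with TMM, 0.05 with quantile scaling and 0.11 with equal sums. The 7 members P4HB, PDIA3, PDIA6, CANX, SEC61G, EDEM3 and VCP rose under all 4 scalings, and HSPA5, ERO1B, SEC61B and OS9 fell under all 4. DERL3, also called lower under all 4, reached 1 FPKM only in EV and so could only be lower in OVER43. Without it, 21 of 39 tested members rose and 4 fell. The shares of all tested genes given here, also those by level, are the background of each role count below.

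**Figure D1:**
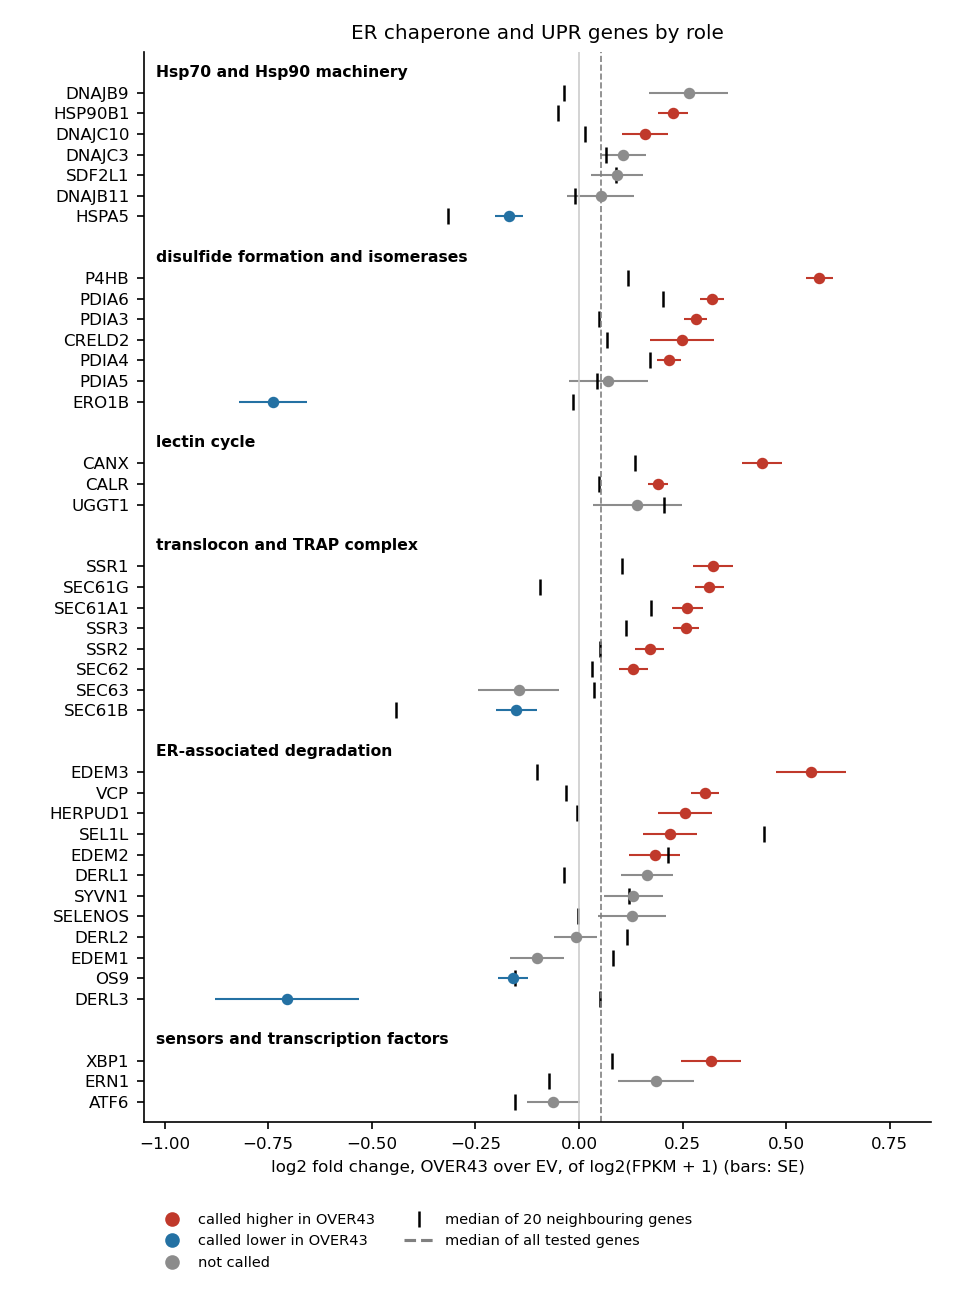
Log2 fold change, OVER43 over EV, of the 40 tested members on the log2(FPKM + 1) scale, grouped by role, with standard errors as bars, coloured by the call, with the median fold change of the 20 neighbouring tested genes as a black tick and the median of all tested genes (0.05) as a dashed line. P4HB (0.58), EDEM3 (0.56) and CANX (0.44) lie furthest right, and ERO1B (-0.74) and DERL3 (-0.70) furthest left; CALR, SEC62, SSR2, DNAJB11 and SDF2L1 change sign after quantile scaling, and SEC62, DNAJB11, SDF2L1, DNAJC3, PDIA5, SYVN1 and SELENOS with equal FPKM sums.

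Of the Hsp70 and Hsp90 machinery, 2 of 7 tested members rose, 1 fell and 4 did not pass (1 higher and 1 lower with TMM and with quantile scaling, 0 and 1 with equal sums). HSPA5 encodes BiP, the ER Hsp70 that also holds the sensors inactive and is the usual marker of the unfolded protein response. It stood at 287, 293 and 289 FPKM in OVER43, against 333, 334 and 311 FPKM in EV. All OVER43 libraries were below all EV libraries, and HSPA5 fell by 0.17 on the log2 scale (SE 0.0339, limma adjusted p = 0.00436). HSP90B1, the ER Hsp90 (GRP94), stood at 377, 394 and 378 FPKM in OVER43, against 342, 326 and 314 FPKM in EV. It rose (log2 fold change 0.23, limma adjusted p = 0.00145), a call lost with quantile scaling (adjusted p = 0.0949), and lost too where FPKM sums were made equal (adjusted p = 0.0727). These 2 chaperones of the same compartment, at similar levels, thus moved in opposite directions. The neighbours of HSPA5 on chromosome 9 were also lower in OVER43 (below).

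Of the co-chaperones, 1 passed the test. DNAJC10, a reductase that works with BiP, had 33.6, 31.3 and 30.4 FPKM in OVER43 and 28.5, 26.9 and 29.6 FPKM in EV, close between the groups, and its call (log2 fold change 0.16, limma adjusted p = 0.0482) was lost under TMM, quantile and equal-sum scaling (adjusted p = 0.168, 0.366 and 0.815) and without any of OVER43 libraries 0 and 1 or EV libraries 0 and 1 (adjusted p = 0.0817 to 0.156). DNAJB9, an inducible co-chaperone of BiP, had 10.4, 8.65 and 11.2 FPKM in OVER43 and 8.49, 8.25 and 7.86 FPKM in EV. Its groups did not overlap but it did not pass the test (log2 fold change 0.26, adjusted p = 0.0504; without OVER43 library 1, adjusted p = 0.0100). DNAJB11 averaged 38.6 FPKM in OVER43 and 37.4 FPKM in EV, DNAJC3 26.3 and 24.3 FPKM, and SDF2L1 76.0 and 71.2 FPKM, none past the test in all 6 libraries (DNAJC3 adjusted p = 0.0483 without OVER43 library 2). HYOU1, the ER nucleotide exchange factor of BiP, and MANF, a secreted stress-induced protein, were listed between 0 and 0.0235 FPKM in the 6 libraries and were not tested.

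Disulfide formation and isomerases differed most among the 6 roles in summed FPKM (below). Of the 7 members, 5 rose, 1 fell and 1 did not pass, against 28.4% higher and 17.5% lower of all tested genes. P4HB, protein disulfide isomerase itself and a subunit of collagen prolyl 4-hydroxylase, had 341, 326 and 324 FPKM in OVER43, against 219.8, 227 and 214 FPKM in EV. Its lowest OVER43 library was far above its highest EV library, and its log2 fold change was 0.58 (SE 0.0333, limma adjusted p = 1.06e-05). PDIA6, an isomerase of the same family, had 218, 226 and 226 FPKM in OVER43 and 180.2, 179 and 177 FPKM in EV, with no overlap (log2 fold change 0.32, adjusted p = 7.52e-05). PDIA3, which works with calnexin and calreticulin on glycoproteins, had 341, 347 and 336 FPKM in OVER43 and 273, 284 and 284 FPKM in EV, again apart (log2 fold change 0.28, adjusted p = 0.000135). These isomerases were each raised in all OVER43 libraries.

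PDIA4 averaged 143.6 ± 0.82 FPKM in OVER43 and 123.3 ± 2.14 FPKM in EV (SD, n = 3 each); its call (log2 fold change 0.22, limma adjusted p = 0.000568) was lost with quantile scaling (adjusted p = 0.534) and equal sums (adjusted p = 0.0558). CRELD2, a secreted factor of the stress response, averaged 17 FPKM in OVER43 and 14.2 FPKM in EV, and its call (adjusted p = 0.0285) was lost under every scaling other than the deposited one (adjusted p = 0.0640 to 0.259) and when OVER43 library 1 or 2, or EV library 0 or 2, was left out (adjusted p = 0.0532 to 0.0906). PDIA5 averaged 10.6 and 10.1 FPKM in OVER43 and EV and did not pass. The oxidase that reloads these enzymes went the other way. ERO1B had 2.53, 2.52 and 2.49 FPKM in OVER43, against 5.03, 4.63 and 4.93 FPKM in EV. The OVER43 libraries lay close together at a lower level, and ERO1B fell by 0.74 on the log2 scale (SE 0.0822, limma adjusted p = 0.000238), 48.4% lower in mean FPKM. ERO1A, the widely expressed oxidase and not a member, averaged 82.1 ± 3.94 FPKM in OVER43 and 53.7 ± 5.70 FPKM in EV and rose (log2 fold change 0.61, adjusted p = 0.000399), with neighbours on chromosome 14 at a median of 0.19. The 2 oxidase genes thus differed in direction, and the higher level was that of ERO1A in both groups.

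**Figure D2:**
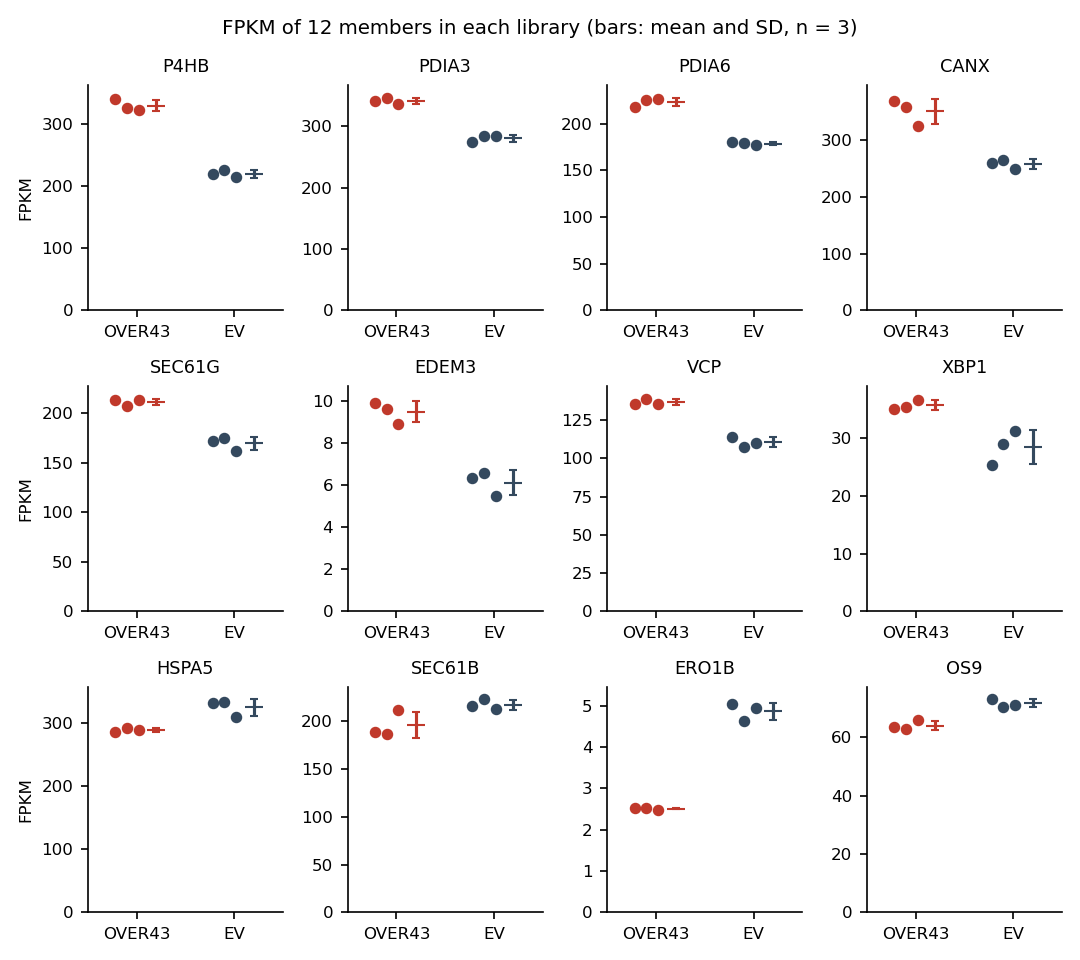
FPKM (linear axes from 0) of 12 members in each of the 3 OVER43 and 3 EV libraries as points, with mean and SD beside them (n = 3). The 8 genes of the first 2 rows lie higher in every OVER43 library than in any EV library (P4HB 324 to 341 FPKM in OVER43 and 214 to 227 FPKM in EV), and the 4 genes of the bottom row lie lower, ERO1B by the largest proportion of these and SEC61B by the narrowest gap (211 FPKM in its highest OVER43 library and 212 FPKM in its lowest EV library).

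Of the lectin cycle, which retains glycoproteins until they are folded, 2 of 3 members rose as deposited. CANX, the membrane-bound calnexin, had 369, 358 and 326 FPKM in OVER43, against 259.7, 266 and 249.2 FPKM in EV. All OVER43 libraries were higher, with the wider spread in OVER43, and the log2 fold change was 0.44 (SE 0.0481, limma adjusted p = 0.000217). CALR, its soluble relative calreticulin and the most abundant member by FPKM, had 687, 701 and 707 FPKM in OVER43 and 620.4, 609.6 and 605 FPKM in EV. It rose as deposited (log2 fold change 0.19, adjusted p = 0.000418) but was lower in OVER43 after quantile scaling (log2 fold change -0.06, adjusted p = 0.0442), so its direction depends on the scaling. UGGT1, which marks unfolded glycoproteins for another round, averaged 24.9 ± 3.54 FPKM in OVER43 and 22.4 ± 2.34 FPKM in EV (SD, n = 3 each) and did not pass.

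Of the translocon and its associated TRAP complex, 6 of 8 tested members rose, 1 fell and 1 did not pass (1 higher and 1 lower with quantile scaling, 4 and 1 with equal sums). The background as deposited was 28.4% higher and 17.5% lower, and at 100 FPKM or more it was 68.9% and 11.6%. The 3 subunits of the Sec61 channel differed among themselves. SEC61G had 213, 207 and 213 FPKM in OVER43, against 172, 174 and 162 FPKM in EV, and rose (log2 fold change 0.31 with an SE of 0.0350; limma adjusted p = 0.000240). The pore subunit SEC61A1 averaged 101 ± 1.23 FPKM in OVER43 and 84.3 ± 3.03 FPKM in EV and rose as deposited (log2 fold change 0.26, adjusted p = 0.000760; adjusted p = 0.151 with quantile scaling). SEC61B had 188, 187 and 211 FPKM in OVER43, against 216, 223 and 212 FPKM in EV. The groups were separated by about 1 FPKM, and its fall (log2 fold change -0.15, adjusted p = 0.0355) was lost without any of OVER43 libraries 0 and 1 or the 3 EV libraries (adjusted p = 0.0504 to 0.113). Its neighbours on chromosome 9 were lower by more than the gene itself.

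The TRAP subunits, which assist the channel with some signal sequences, moved together. SSR3 had 338, 348 and 359 FPKM in OVER43 and 291, 297 and 284 FPKM in EV, SSR1 105, 103 and 103 FPKM and 84.2, 87.4 and 76.9 FPKM, and SSR2 165, 169 and 173 FPKM and 148, 155 and 146 FPKM. Each rose as deposited with no overlap between groups (log2 fold changes 0.26, 0.32 and 0.17; limma adjusted p = 0.000395, 0.00108 and 0.00523). None of these calls held with quantile scaling (adjusted p = 0.0761, 0.0536 and 0.808, with SSR2 at -0.01), and SSR2 also lost its call with equal sums (adjusted p = 0.488). SSR4 was listed at 0 in all 6 libraries. SEC62, which serves posttranslational import, averaged 56.5 ± 0.807 FPKM in OVER43 and 51.5 ± 0.615 FPKM in EV and rose as deposited (log2 fold change 0.13, adjusted p = 0.0172), with a sign that turned to -0.01 after quantile scaling and with equal sums; the call was also lost without OVER43 library 1 (adjusted p = 0.0502) or EV library 0 (adjusted p = 0.0571). Its partner SEC63 averaged 6.72 FPKM in OVER43 and 7.55 FPKM in EV and did not pass.

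**Figure D3:**
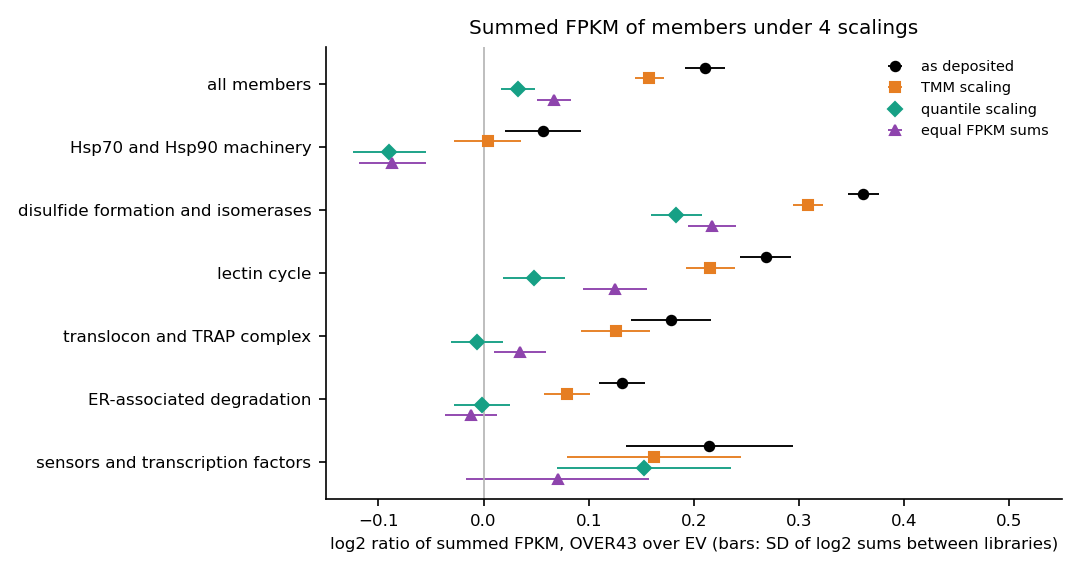
Log2 ratio of summed FPKM, OVER43 over EV, for all members and for each role under the deposited scaling and 3 others, with the SD of log2 sums between libraries as bars. The disulfide formation and isomerase sum stays positive under all 4 (0.36 as deposited, 0.18 to 0.31 under the others), whereas the Hsp70 and Hsp90 sum lies at 0.06 as deposited and below 0 with quantile scaling and equal sums, the translocon sum falls below 0 with quantile scaling, and the degradation sum falls below 0 with both.

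Summed over the members, FPKM came to 4694 ± 20.9 in OVER43 and 4058 ± 72.8 in EV (SD, n = 3 each; exact two-sided permutation p = 0.1, the smallest this design allows). As a share of the FPKM of a library, the members took 0.829% to 0.85% in OVER43 and 0.794% to 0.808% in EV. The sum of disulfide formation and isomerase members was 1068 ± 6.04 FPKM in OVER43 and 831.7 ± 11.1 FPKM in EV. The Hsp70 and Hsp90 sum was 855.5 ± 11.9 FPKM in OVER43 and 822.8 ± 26.8 FPKM in EV, with overlapping groups (exact two-sided permutation p = 0.2, n = 3 each). The plot of summed FPKM shows how far each sum depends on scaling.

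Of the 12 degradation members, 5 rose, 2 fell and 5 did not pass; with quantile scaling and with equal sums, 2 rose and 3 fell. EDEM3, a mannosidase that trims glycoproteins for degradation, had 9.91, 9.63 and 8.92 FPKM in OVER43, against 6.32, 6.58 and 5.47 FPKM in EV. Its groups were well separated (log2 fold change 0.56 with an SE of 0.0837; limma adjusted p = 0.00102), and its neighbours on chromosome 1 were at a median of -0.10. VCP, the cytosolic ATPase that pulls substrates out of the membrane, had 135, 139 and 136 FPKM in OVER43 and 114, 108 and 109.9 FPKM in EV, again with no overlap (log2 fold change 0.30, adjusted p = 0.000231). HERPUD1, a membrane organiser of the ubiquitin ligase and a stress-induced gene, had 21.7, 20.3 and 23.4 FPKM in OVER43 and 18.4, 17.2 and 18.6 FPKM in EV, and rose (log2 fold change 0.26, adjusted p = 0.0135; not called with quantile scaling, adjusted p = 0.0527, or equal sums, adjusted p = 0.163). OS9, a lectin that delivers glycoproteins to the ligase, had 63.4, 62.8 and 65.8 FPKM in OVER43 and 73.2, 70.5 and 71.2 FPKM in EV and fell by 0.16 on the log2 scale (adjusted p = 0.00823), with neighbours on chromosome 12 at -0.15.

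Other calls among degradation members rested on little. EDEM2 averaged 13.2 FPKM in OVER43 and 11.5 FPKM in EV and SEL1L, the scaffold of the ligase, 23.0 FPKM and 19.6 FPKM. Their calls (limma adjusted p = 0.0411 and 0.0248) were lost under TMM, quantile and equal-sum scaling (adjusted p = 0.0792 to 0.573 for EDEM2 and 0.0688 to 0.360 for SEL1L). Both also lost the call without OVER43 library 0 (adjusted p = 0.116 and 0.0841) or EV library 0 (adjusted p = 0.0770 and 0.0795), EDEM2 in addition without OVER43 library 1 or 2 or EV library 1 (adjusted p = 0.0603 to 0.125) and SEL1L without EV library 2 (adjusted p = 0.0516). DERL3 stood at 0.793, 0.296 and 0.940 FPKM in OVER43 and 1.84, 1.43 and 1.83 FPKM in EV; it passed the filter on low values only through EV and so had to be lower in OVER43, and its log2 fold change of -0.70 is a description. The ligase SYVN1 averaged 17.2 FPKM in OVER43 and 15.6 FPKM in EV, DERL1 74.7 and 66.5 FPKM, SELENOS 25.2 and 23.0 FPKM, DERL2 36.2 and 36.4 FPKM, and EDEM1 29.3 and 31.4 FPKM. None of these 5 passed the test as deposited, although EDEM1 was called lower in OVER43 with quantile scaling (adjusted p = 0.0478) and equal sums (adjusted p = 0.0250) and DERL1 was called higher without OVER43 library 0 (adjusted p = 0.0249).

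Of the sensors, ERN1 had 4.97, 5.25 and 5.48 FPKM in OVER43 and 3.97, 4.86 and 4.66 FPKM in EV. Its groups did not overlap, but it did not pass the test (log2 fold change 0.19, limma adjusted p = 0.133). ATF6 had 11.9, 12.9 and 11.7 FPKM in OVER43 and 12.8, 12.3 and 13.2 FPKM in EV, which overlapped (adjusted p = 0.455; called lower with equal sums, adjusted p = 0.0472). XBP1 had 35.1, 35.4 and 36.7 FPKM in OVER43, against 25.4, 29 and 31.2 FPKM in EV. The OVER43 libraries lay close together above the more scattered EV libraries, and XBP1 rose (log2 fold change 0.32, SE 0.0721, adjusted p = 0.00763; adjusted p = 0.0845 with equal sums).

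The deposited isoform table divided XBP1 between the transcripts whose sequences are shown above. XBP1-202, of the spliced frame, had 4.76, 7.11 and 6.72 FPKM in OVER43, against 2.87, 3.84 and 3.53 FPKM in EV. It was higher in all OVER43 libraries (log2 fold change 0.70 with an SE of 0.168; limma adjusted p = 0.0461 over 31220 isoform entries). The call was lost under TMM, quantile and equal-sum scaling (adjusted p = 0.0616, 0.0592 and 0.0813) and without any library other than OVER43 library 0 (adjusted p = 0.0838 to 0.132). XBP1-201, of the unspliced frame, had 28.2, 26.1 and 27.8 FPKM in OVER43 and 19.8, 22.6 and 24.96 FPKM in EV and did not pass (log2 fold change 0.28, adjusted p = 0.0923; adjusted p = 0.0434 without EV library 2). The share of XBP1-202 in all XBP1 FPKM, which 1 scaling factor per library cannot move, was 13.6%, 20.1% and 18.3% in OVER43 and 11.3%, 13.2% and 11.3% in EV. The OVER43 shares were all higher, by 5.39 percentage points in the mean (17.3% ± 3.39 in OVER43 and 11.9% ± 1.12 in EV, SD, n = 3 each; exact two-sided permutation p = 0.1, the smallest possible), but as a share of these 2 transcripts alone the groups overlapped (18.4% ± 3.60 in OVER43 and 13.2% ± 1.18 in EV; exact two-sided permutation p = 0.2, n = 3 each). These FPKM are Cuffdiff's division of reads between transcripts of 1850 bases (XBP1-201) and 1131 bases (XBP1-202), which differ in their ends as well as in the 26 bases, so they are not a count of reads across the splice.

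**Figure D4:**
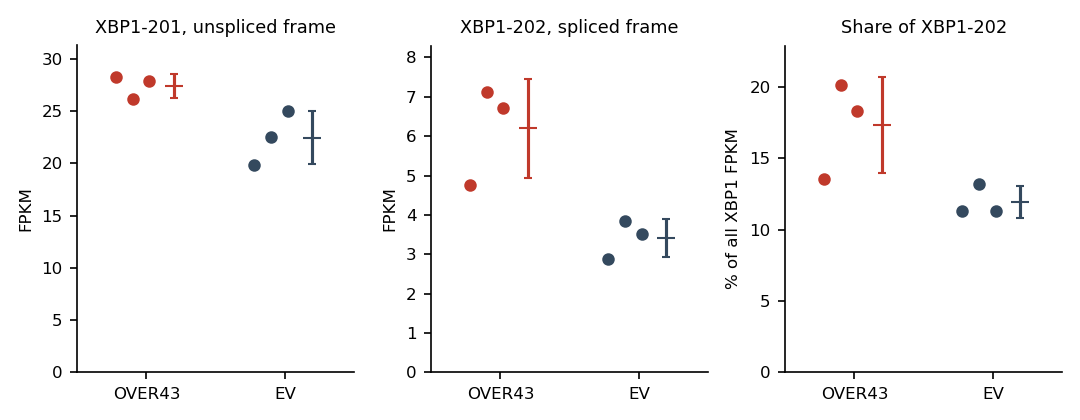
FPKM of XBP1-201 and XBP1-202 and the share of XBP1-202 in all XBP1 FPKM (percent), in each of the 3 OVER43 and 3 EV libraries as points with mean and SD (n = 3). XBP1-202 lies higher in all OVER43 libraries (4.76 to 7.11 FPKM) than in EV (2.87 to 3.84 FPKM), and the lowest OVER43 share (13.6%) lies just above the highest EV share (13.2%).

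In the isoform table as a whole, 127 of 382 transcripts of members were tested, of which 21 rose and 3 fell, against 9.77% and 4.82% of all tested entries (14.6% in either direction). The rise of P4HB rested on P4HB-201 (299.5 ± 6.48 FPKM in OVER43 and 194.4 ± 5.28 FPKM in EV), which held 90.7% of the gene's FPKM in OVER43 and 88.2% in EV; its log2 fold change was 0.62 (limma adjusted p = 0.000392). CANX-201 (229.6 FPKM in OVER43 and 175.8 FPKM in EV) and CANX-202 (40.6 and 28.96 FPKM) both rose (log2 fold changes 0.38 and 0.47; adjusted p = 0.00141 and 0.00278). ERO1B-202, with 97.8% of the gene's FPKM in OVER43 and 97.3% in EV, fell by 0.73 on the log2 scale (adjusted p = 0.00587). EDEM3-201 (9.31 FPKM in OVER43 and 5.70 FPKM in EV) and SEL1L-201 (20.5 and 15.6 FPKM) rose as well (log2 fold changes 0.62 and 0.37; adjusted p = 0.00536 and 0.0107), the second not called with equal sums (adjusted p = 0.0646). Among the called entries of largest change were further transcripts of PDIA3, SSR1 and SSR3, at log2 fold changes of 0.37, 0.46 and 0.36. The SSR1 transcript was not called when any library other than EV library 1 was left out (adjusted p = 0.0693 to 0.120), nor the SSR3 transcript when any OVER43 library or EV library 1 was (adjusted p = 0.0527 to 0.0675).

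The members with an ERSE in their window did not move in 1 direction. Of the 8, 6 rose (CANX, PDIA6, XBP1, CRELD2, HSP90B1 and CALR) and 2 fell (HSPA5 and ERO1B), with a median log2 fold change of 0.24; of the 29 tested members with a window and no such motif, 14 rose and 2 fell, with a median of 0.16. After quantile scaling 3 of the 8 rose (CANX, PDIA6 and XBP1) and 3 fell (CALR, HSPA5 and ERO1B), and with equal sums 2 rose and 2 fell. CRELD2 was called under none of the other scalings and HSP90B1 only with TMM. Outside the members, 17 genes had the motif in their window, and of the 6 tested, 2 rose and none fell. As deposited, 28.4% of all tested genes rose and 17.5% fell, and 68.9% rose at 100 FPKM or more. CALR, HSP90B1, CANX, PDIA6 and HSPA5 were above that level. A related element, ERSE-II, spelled ATTGGNCCACG, stood in windows of 0.0696% of genes and in those of 3 members: HERPUD1, which rose as deposited, SDF2L1, which did not pass, and HYOU1, which was not tested. The core of the element that spliced XBP1 is known to bind, TGACGTGG, stood in windows of 0.927% of genes and in those of 6 members. SSR4 and HYOU1 were not tested, and DNAJC10, SEC62, SSR3 and VCP rose as deposited. After quantile scaling VCP alone was called. DNAJC10 and SEC62 were called under none of the other scalings, and SEC62 turned sign under 2 of them. In HYOU1 this core overlaps an ERSE-II match. A match describes the letters of the window and does not show binding.

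Other ER genes outside the members were read from lists by role (106 genes, 96 tested), of which 47 rose and 13 fell with a median log2 fold change of 0.18. Of all tested genes, 28.4% rose and 17.5% fell as deposited, and 15.3% rose and 29.2% fell with equal sums. These shares are the background of each list count below. Of the PERK arm, 3 of 11 tested genes rose and 2 fell as deposited, and 2 rose and 4 fell with equal sums. The sensor itself (gene EIF2AK3) averaged 6.70 ± 2.31 FPKM in OVER43 and 5.01 ± 0.453 FPKM in EV and did not pass (limma adjusted p = 0.244). ATF4 averaged 132 FPKM in OVER43 and 143 FPKM in EV and did not pass as deposited (adjusted p = 0.104). It was called lower with TMM, quantile and equal-sum scaling (adjusted p = 0.0257, 0.00120 and 0.00193). EIF2S1, the translation factor subunit that PERK phosphorylates, averaged 316 ± 5.86 FPKM in OVER43 and 195 ± 8.36 FPKM in EV, and PPP1R15A (GADD34), which directs its dephosphorylation, 95.3 ± 3.65 and 59.3 ± 2.29 FPKM; both rose (log2 fold changes 0.69 and 0.68; limma adjusted p = 7.27e-06 and 1.94e-05). ASNS, asparagine synthetase, fell by 0.49 on the log2 scale (20.8 ± 0.525 FPKM in OVER43 and 29.7 ± 0.119 FPKM in EV, limma adjusted p = 8.46e-05). ATF3, a stress-induced transcription factor, averaged 0.464 FPKM in OVER43 and 1.29 FPKM in EV and, like DERL3, reached 1 FPKM only in EV and so could only be lower. Without it, 3 of 10 genes of the PERK arm rose and 1 fell as deposited, and 47 of 95 genes of all lists rose and 12 fell.

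The oligosaccharyltransferase, which adds the glycans that the lectin cycle reads, had 8 of 10 tested genes higher and none lower as deposited. With equal sums 6 of 10 were higher, and with quantile scaling 4 rose and 2 fell. Of all tested genes, 28.4% rose as deposited, 15.3% with equal sums and 21.0% with quantile scaling. At 100 FPKM or more, 68.9% of all tested genes rose as deposited. DAD1 averaged 187.7 FPKM in OVER43 and 131.0 FPKM in EV and RPN2 198.7 and 146.7 FPKM, and both rose under all 4 scalings (as deposited, log2 fold changes 0.52 and 0.43; limma adjusted p = 3.37e-05 and 1.94e-05). Of 16 tested translocation genes outside the members, 11 rose and 2 fell, among them the signal recognition particle subunits SRP68 (log2 fold change 0.49) and SRP54 (0.45), which rose, and SRP72 (-0.21) and the channel paralog SEC61A2 (-0.84), which fell. Of 27 other folding enzymes, 11 rose and 6 fell as deposited, and 7 rose and 9 fell with equal sums. TMX1, a membrane thioredoxin, rose (log2 fold change 0.68; 117.9 FPKM in OVER43 and 73.2 FPKM in EV), as did ERO1A. ERP44, which retains the oxidases in the ER, and FKBP14, a prolyl isomerase, fell (log2 fold changes -0.44 and -0.46; FKBP14 adjusted p = 0.0592 without OVER43 library 2). Of 8 lectin and glucosidase genes 4 rose and 1 fell as deposited (1 and 2 with quantile scaling). Among those called were LMAN1, a cargo receptor, at 0.43, MLEC at 0.37 (adjusted p = 0.0677 with quantile scaling) and MAN1B1, a mannosidase, at -0.39. Of 16 degradation genes 7 rose and 1 fell as deposited (1 and 3 with equal sums). Those called included the glycanase NGLY1 at 0.38 and the ubiquitin-conjugating enzyme UBE2J1 at 0.24 (adjusted p = 0.198 with equal sums). They also included UBXN4 at -0.14 (not called when any library other than OVER43 library 1 was left out, adjusted p = 0.0516 to 0.0920). Of 8 further sensors and ER membrane factors 3 rose and 1 fell as deposited (0 and 2 with quantile scaling). TMBIM6 at 0.24 and RTCB, the ligase that rejoins XBP1 mRNA, at 0.21 rose as deposited but not with quantile scaling (adjusted p = 0.956 and 0.110). The protease MBTPS1, which cuts ATF6, fell (-0.31).

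The change of a member was set beside that of its chromosomal neighbours, the 10 tested genes on each side. For 9 of the 40 members the neighbours' median differed by 0.15 or more from the median of all genes. It was -0.44 for SEC61B and -0.32 for HSPA5, both on chromosome 9, -0.15 for OS9 (chromosome 12) and ATF6 (chromosome 1), -0.10 for EDEM3 (chromosome 1), 0.20 for PDIA6 and 0.21 for UGGT1 (both chromosome 2), 0.22 for EDEM2 (chromosome 20) and 0.45 for SEL1L (chromosome 14). HSPA5, SEC61B and OS9 were thus lower among neighbours that were also lower. HSPA5 (-0.17) and SEC61B (-0.15) fell by less than their neighbours, and OS9 (-0.16) by about as much. The part of the neighbourhood in their result was not tested. ERO1B (neighbours at -0.01) fell against neighbours near the median of all genes. EDEM3 rose among neighbours at -0.10, a median that was -0.05 with 5 and 0.02 with 25 genes on each side. P4HB (0.58, neighbours at 0.12) and CANX (0.44, neighbours at 0.14) rose by more than theirs. Of the other 31 members, 17 rose and 2 (ERO1B and DERL3, which could only be lower) fell as deposited, with a median of 0.19. The background as deposited was 28.4% higher and 17.5% lower, with a median of 0.05 (68.9% higher at 100 FPKM or more). Among the other ER genes, the neighbours of EIF2S1, TMX1, SRP54, DAD1 and ERO1A, all on chromosome 14, were at medians of 0.44, 0.33, 0.36, 0.29 and 0.19, and those of ERP44 on chromosome 9 at -0.45; the part of this in their changes was not tested either. Locus also limits single values in another way: the authors' program reported 30 of the 43 members in a bundle with overlapping genes (PDIA3 with 10 genes in all), while HSPA5, XBP1, EDEM3, SEC61B and VCP stood alone.

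**Figure D5:**
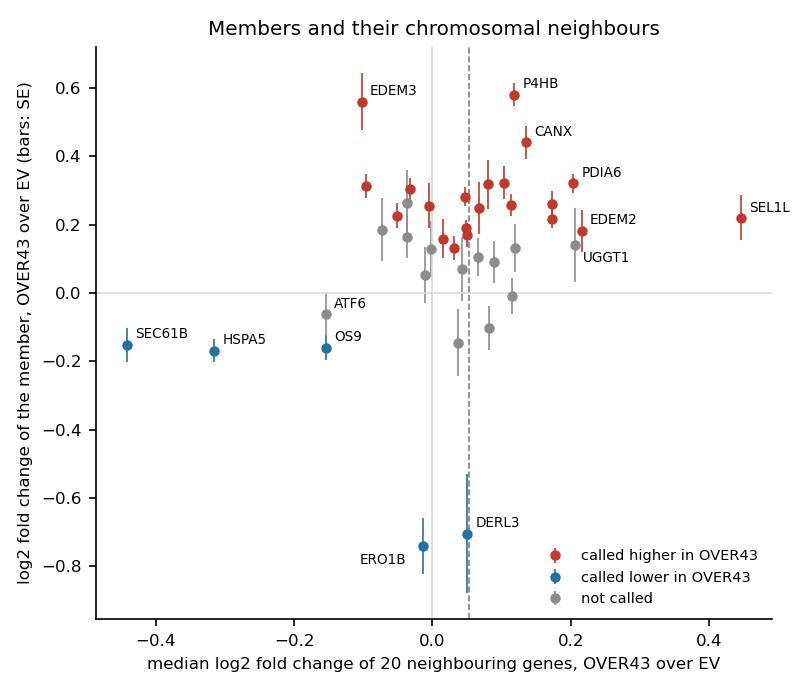
Log2 fold change of each of the 40 tested members (y axis, bars: SE) against the median log2 fold change of its 20 neighbouring tested genes (x axis), OVER43 over EV, coloured by the call, with the median of all genes as a dashed line (0.05). SEC61B and HSPA5 lie furthest left and SEL1L furthest right (0.45), while P4HB, CANX, EDEM3, ERO1B and DERL3 changed by more than their neighbours.

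In the authors' deposited table, made with Cuffdiff, 11 of the 40 members were marked significant, 10 higher and 1 lower in OVER43. Of all 15897 genes tested there, 3393 were marked significant. All 40 members had the same direction as here, but both comparisons start from the same FPKM, so this is no independent check. All 11 were also called by limma, but not every member called by limma was marked there. Of the members lower under all 4 scalings, ERO1B alone was marked. HSPA5, SEC61B, OS9 and DERL3 were not (Cuffdiff q = 0.133, 0.240, 0.195 and 0.293). Of the 7 higher under all 4, PDIA3 and VCP were not marked (Cuffdiff q = 0.0515 and 0.0512).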

How the data were processed

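Poly(A) RNA of 6 RKO samples (3 OVER43, 3 EV) went into TruSeq libraries (per the labels' protocols). A gene table and an isoform table from Cuffdiff, per the submitters' processing notes, were deposited; its version, the aligner and the strand are not given in the labels or headers read here. Each holds, per the file headers, FPKM per library and the authors' group means, a deposited log2 fold change (EV over OVER43), a test statistic, which is a score of the authors, and deposited p-values and q-values. Those comparison columns served only to describe the authors' deposited table. Its loci are hg19 positions although the notes name hg38; motif and transcript sequences are from RefSeq GRCh38.p14 and GENCODE 29. Columns are numbered 0 to 2 and labels 1 to 3, so a column is a library of its group.

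Genes reaching 1 FPKM in 3 or more of 6 libraries were tested on log2(FPKM + 1) with limma 3.58.1 (R 4.3.3; trend, robust; group the only term), and isoforms likewise; 19 genes with no Cuffdiff estimate were left out, and a value listed at 0 can be a missing estimate. Both fits were tested on simulated data with log2 changes of 0.3, 0.5 and 1. The gene fit recovered 37.3%, 65.7% and 89.4% of these changes, and the isoform fit recovered 1.5%, 0% and 15.2%. The simulations changed a much smaller share of features than was called in the data (45.9% of genes and 14.6% of isoform entries). Recovery after Benjamini-Hochberg adjustment depends on that share, so these percentages do not give the sensitivity of the fits to the data. A transcript that did not pass the test can still differ between the groups, as can a gene with a small change. Depth was read from 66 to 83 low values per library, 100% of them within 0.1 of a whole fragment. Replicates were not copies (r of log values 0.988 to 0.992). The members and lists were chosen with earlier results of these data known. Named are all members, the 2 highest and 2 lowest called genes of each other list, and EIF2AK3 and ATF4 of the PERK arm. Also named are GJA1, the 10 member isoforms of largest called change and the XBP1 isoforms. Alternatives tried were 3 scalings (TMM in a script of its own, quantile, equal FPKM sums), filters of 0 and 5 FPKM, 0.1 as pseudocount, the column number as a block, and fits without each library.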

Additional observations from a re-analysis of the deposited data

How the results depend on the processing

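Called members numbered 9 higher with quantile scaling and 10 with equal FPKM sums, against 21, and 16 to 20 without 1 library; called lower were 3 with no filter, 3 with at least 5 FPKM and 3 to 5 without 1 library, against 5: DERL3 and ERO1B were under the 5 FPKM filter, and without an EV library DERL3 was not tested and SEC61B not called. Over all genes, equal sums gave 1870 higher and 3567 lower calls, and the share of calls that were higher was 61.8% as deposited, 52.5% with TMM, 51.2% with quantile scaling and 34.4% with equal sums. Other ER genes numbered 24 higher with quantile scaling, and 27 higher and 24 lower with equal sums. Transcripts of members numbered 9 higher and 6 lower with quantile scaling, 10 and 7 with equal sums, 12 and 1 with no filter and 1 lower with the replicate block (1 to 2 lower without 1 library).

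The log2 ratio of summed FPKM under TMM, quantile and equal-sum scaling was 0.158, 0.0330 and 0.0667 for all members, 0.00392, -0.0898 and -0.0869 for Hsp70 and Hsp90 machinery, 0.308, 0.183 and 0.217 for disulfide enzymes, 0.216, 0.0478 and 0.125 for the lectin cycle, 0.126, -0.00626 and 0.0343 for the translocon, and 0.0790, -0.00158 and -0.0119 for degradation; with equal sums it was 0.0704 for sensors. The log2 fold change turned sign for DNAJB11 (quantile -0.0429, equal sums -0.0877, without EV library 2 -0.0460; up to 0.124 without another library), SDF2L1 (quantile -0.0636, equal sums -0.0501), SEC62 (-0.00579 and -0.00977), CALR (quantile -0.0608), SSR2 (quantile -0.0102), and with equal sums for DNAJC3 (-0.0321), PDIA5 (-0.0600), SYVN1 (-0.00428) and SELENOS (-0.00966); DERL2, not called, ranged over -0.0475 to 0.0237 without 1 library and was positive without OVER43 library 1 (0.0183) or 2 (0.00554) or EV library 0. The cause was not tested. With 25 neighbours on each side, 5 members had shifted neighbours.

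Same-numbered columns did not deviate together (r = 0.017, -0.091 and 0.029) more than differently numbered ones (r = -0.099 to 0.097). This cannot tell whether the numbers pair the libraries, which the labels do not say. The replicate block gave 18 higher and 4 lower members and 3306 higher and 2010 lower genes. FPKM under about 1 cannot be read as absence.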
